A study of Homo sapiens with 6 samples.

Results

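Glycolysis and its hypoxia-inducible relatives were followed across an induction of the transcription factor FOXM1. The list names 40 genes: glycolytic enzymes, glucose and lactate transporters, the hypoxia-inducible factors (HIF), an oxygen sensor pair and targets of HIF. They were found by gene symbol in the comparison table of the series, which holds 38 of them among 13008 genes. The same 38 stand among the 13161 genes of the normalised counts, and all 40 among the 57773 genes with FPKM values, which are scaled to library depth and exon length. ALDOC, a brain-type aldolase, lay between 0.0127 and 0.0555 FPKM, and EGLN3, an oxygen-sensing prolyl hydroxylase, was listed at 0 in all 6 libraries, so neither is part of the tests.

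The cells were Tet-FLAG-FOXM1c-hTERT-RPE1, an established human line of retinal pigment epithelial origin, immortalised with telomerase, in which a FLAG-tagged FOXM1c transgene is controlled by tetracycline. The dox group (3 libraries, genotype label FOXM1 overexpression) was given doxycycline at 1 µg/mL, renewed at 24 h intervals over 48 h. In the no dox group (3 libraries) the same line carries the genotype label WT and the treatment label none. All cells were grown in DMEM/F12 at 5% CO2, and polyadenylated RNA was sequenced. The labels name no clone number, no separate cultures and no doxycycline-treated cells without the transgene, so doxycycline and FOXM1 cannot be told apart here. The p-values reflect only how these libraries vary, and that variation may be technical.

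Glycolysis splits glucose into pyruvate in the cytosol, and lactate dehydrogenase turns that pyruvate into lactate, which leaves the cell through monocarboxylate transporters. HIF1A and EPAS1 are the oxygen-regulated subunits of HIF, which prolyl hydroxylases such as EGLN1 mark for destruction when oxygen is present. HIF is known to raise most glycolytic enzymes as well as CA9, BNIP3, NDRG1 and other genes of low-oxygen adaptation, acting through a short core sequence near their start sites. Its regulation by oxygen acts mainly on protein stability, which RNA levels do not show.

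Library totals lay between 15094498 and 49882123 reads, and the replicate 3 libraries were the shallowest of each group. Each dox library was deeper than the no dox library of its number. The totals were 41719959, 49882123 and 25148936 reads in dox against 31307141, 32280300 and 15094498 in no dox. Mitochondrially encoded genes took 2.22% to 3.33% of reads, with the highest share in replicate 3 of each group. The shares were 2.39%, 2.22% and 3.10% in dox against 2.42%, 2.63% and 3.33% in no dox, lower in dox for each number. FOXM1 had at least 65289 normalised counts in each dox library and at most 5009 in each no dox library, so each library matched its label. Of 9 markers of mature retinal pigment epithelium, 6 lay under 0.1 FPKM in every library and RPE65 between 0.046 and 0.22, while MITF and OTX2 lay between 1.91 and 3.14 FPKM. Of 7 epithelial markers, the keratins KRT8 and KRT18 were present (20.02 to 65.2 FPKM), while the keratin KRT19 lay between 0.013 and 0.069 FPKM. The epithelial adhesion genes CDH1 and EPCAM were at or near 0, while CDH2 (31.0 to 40.3 FPKM) and TJP1 (3.90 to 5.08 FPKM) were present. All 7 neural retina markers and all measured endothelial and blood markers were under 0.1 FPKM in every library. Of 8 fibroblast markers, 4 lay under 0.1 FPKM in every library (COL1A2, COL3A1, DCN and LUM). COL1A1 lay between 5.64 and 12.7 FPKM, PDGFRB between 9.42 and 13.1 and PDGFRA between 0.18 and 0.37. The sum of all 8 ran from 40.4 to 48.8 FPKM in dox and from 44.8 to 58.0 in no dox. THY1 held 22.2 to 27.1 FPKM in dox and 24.9 to 34.9 in no dox. The part of these markers in the results was not tested.

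The short sequence that HIF reads, ACGTG on either strand, was searched in the 250 bases before RefSeq transcription starts (GRCh38.p14, while the count files use hg19). Windows were found for 35 of the 40 genes. A total of 21 of these 35 (60.0%) held the core in at least 1 window, against 29.2% of 9343 measured genes with a window. By window the shares were 37.9% of 66 and 18.5% of 35116. The list names known HIF targets, so this is a description of the list. The related letters GCGTG stood in 36.4% of the listed windows and 32.2% of all, and the E-box CACGTG, which overlaps the HIF core on both strands, in 12.1% and 6.34%. By gene these shares were 54.3% and 54.1% for GCGTG and 22.9% and 11.2% for the E-box. TAAACA, a core read by forkhead factors, stood in 4 listed windows (6.06%, beside 11.0% of all), and by gene in 8.57% of the listed and 9.02% of the measured genes. A set of 6 windows is printed here, 5′ to 3′ along the gene and ending 1 base before the start, with every ACGTG or CACGT in capitals. CA9, LDHA, P4HA1, BNIP3 and PDK1 are shown because they hold the core and had some of the largest differences of their roles, and PGK1 because it holds the core at 2 places and was not called in any direction.

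CA9 (chr9:35673678-35673927, plus strand): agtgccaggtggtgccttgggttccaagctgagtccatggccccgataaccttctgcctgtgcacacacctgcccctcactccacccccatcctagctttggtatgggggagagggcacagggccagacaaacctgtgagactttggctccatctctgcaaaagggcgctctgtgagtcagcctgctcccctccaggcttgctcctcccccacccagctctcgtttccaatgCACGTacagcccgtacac
LDHA (chr11:18394313-18394562, plus strand): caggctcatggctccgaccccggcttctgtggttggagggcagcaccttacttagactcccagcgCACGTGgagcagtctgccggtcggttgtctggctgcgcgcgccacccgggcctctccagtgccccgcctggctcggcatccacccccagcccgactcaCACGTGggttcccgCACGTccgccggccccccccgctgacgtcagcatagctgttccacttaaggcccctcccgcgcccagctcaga
P4HA1 (chr10:73096867-73097116, minus strand): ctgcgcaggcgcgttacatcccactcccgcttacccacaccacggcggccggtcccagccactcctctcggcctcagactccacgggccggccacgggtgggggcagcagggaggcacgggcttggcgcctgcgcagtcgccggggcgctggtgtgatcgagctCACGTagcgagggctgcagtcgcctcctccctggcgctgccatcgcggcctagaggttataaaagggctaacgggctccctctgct
BNIP3 (chr10:131981924-131982173, minus strand): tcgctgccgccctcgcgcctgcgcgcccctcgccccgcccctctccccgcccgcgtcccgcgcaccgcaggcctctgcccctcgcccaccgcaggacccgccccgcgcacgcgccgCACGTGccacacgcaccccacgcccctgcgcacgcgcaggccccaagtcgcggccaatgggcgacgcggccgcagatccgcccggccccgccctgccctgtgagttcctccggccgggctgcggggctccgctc
PDK1 (chr2:172555840-172556089, plus strand): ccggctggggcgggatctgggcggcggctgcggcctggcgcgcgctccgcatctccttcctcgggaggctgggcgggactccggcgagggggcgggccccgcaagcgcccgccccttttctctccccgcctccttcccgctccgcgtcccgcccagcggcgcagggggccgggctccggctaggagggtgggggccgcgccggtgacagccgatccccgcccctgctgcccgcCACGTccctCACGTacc
PGK1 (chrX:78103998-78104247, plus strand): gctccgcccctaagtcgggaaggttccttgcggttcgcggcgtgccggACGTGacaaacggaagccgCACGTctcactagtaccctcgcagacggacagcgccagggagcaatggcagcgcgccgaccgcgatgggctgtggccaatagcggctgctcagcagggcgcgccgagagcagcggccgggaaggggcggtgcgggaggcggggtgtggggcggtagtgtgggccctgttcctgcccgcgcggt

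The CA9 window has its 1 match 18 bases before the start. The LDHA window has matches from 185 to 73 bases before the start, 2 of its sites being complete E-boxes. The listed genes that were lower in the test described next and those that were not both held the core often, in 13 of 19 and 7 of 14 genes with a window. ENO1, SLC2A1, HK1, PFKL, PGAM1 and P4HA2 were lower without the letters in these windows.

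The comparison of dox with no dox asked whether the listed genes changed while FOXM1 was induced. As a group they lay lower in dox. The median difference on the log2(normalised count + 1) scale was -0.23 over the 38 genes, beside -0.0022 over all 13153 genes tested. On that scale 29 of 38 were negative, beside 50.6% of all genes. From FPKM values 27 of 38 were negative, beside 44.4% of the 16655 genes tested there. The largest differences were in CA9, LDHA, BNIP3, NDRG1 and PDK1, and the genes encoding HIF itself did not share them. In bulk RNA, fewer cells of a type and less RNA per cell cannot be told apart. The 3 pairs of libraries with equal replicate numbers gave median differences of -0.25, -0.19 and -0.23, with 29, 26 and 29 of 38 genes lower.

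How many of these differences pass depends on whether libraries of equal number are compared within pairs. Without pairing, limma called 0 of 38 genes lower and 0 higher at an adjusted p under 0.05, where 0.22% and 0.319% of all genes were called. At an unadjusted limma p under 0.05, 9 were lower and 1 higher, beside 7.06% and 5.94% of all genes. Deviations from the group mean correlated at 0.745, 0.726 and 0.768 across all genes between same-numbered libraries, and at -0.27 or lower between the others. The 3 deviations of a group sum to 0, so the negative values follow from the positive ones and are no separate evidence of pairing. With the number as a block, limma called 22 lower (57.9%) and 1 higher, PFKM, where 12.4% of all genes were called lower and 10.2% higher. This block fit rests on 2 residual degrees of freedom per gene, with the spread moderated across genes. From FPKM values with the block, 6 were lower (BNIP3, BNIP3L, CA9, ENO1, LDHA and TPI1) and 1 higher (PFKM), beside 1.36% and 1.82% of all genes. On whole reads recovered from the deposited CPM, edgeR's quasi-likelihood test called 0 without the block, beside 0.192% of all genes lower and 0.323% higher. With the block edgeR called 22 lower and 3 higher, beside 12.1% and 11.4%. DESeq2 on the same reads called LDHA and ENO1 lower and PFKM higher without the block, beside 2.31% and 1.68% of all genes. With the block DESeq2 called 21 lower and 1 higher, beside 7.5% and 5.92%. The main fit had no block, since the labels name no batch, and none of the 38 genes passed in it. The smallest limma adjusted p of the 38 without the block was 0.107, for PFKM. In the text that follows, fell and rose refer to the limma test with the block, and each adjusted p is Benjamini-Hochberg adjusted over all genes.

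**Figure D1:**
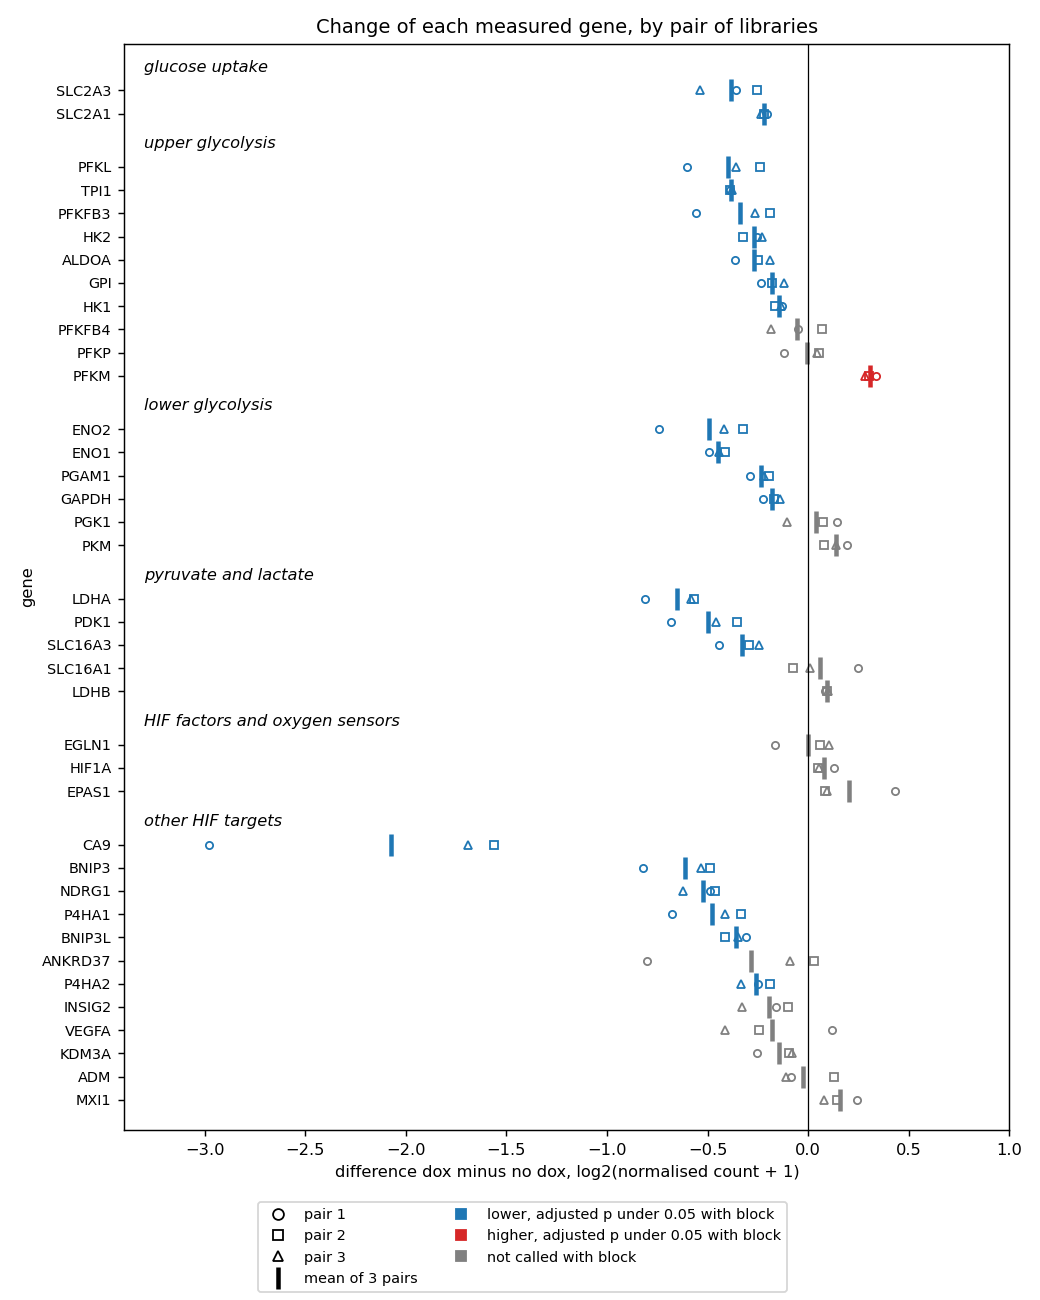
Difference dox minus no dox, log2(normalised count + 1), for each of the 38 measured genes by role. Open symbols are the 3 pairs of libraries with equal replicate number, bars their mean, and colour shows the call with the replicate block. The 22 genes in blue lie left of 0 in every pair, PFKM is the 1 gene in red, and CA9 stands farthest left at -2.08.

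In 9 of the 38 genes every dox library lay below every no dox library, beside 10% of all genes, and in 1 every dox library lay above, beside 9.03%. Counting pairs, 24 of 38 were lower in all 3, beside 28.5% of all genes, and 6 were higher in all 3, beside 26.5%. The 9 were SLC2A1, HK1, HK2, PFKL, ENO1, LDHA, SLC16A3, P4HA1 and INSIG2.

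Glucose enters the cell through facilitative transporters. SLC2A1 (GLUT1, hg19 chromosome 1, 43391052 to 43424530) had normalised counts of 21251, 20527 and 21411 in the dox libraries, in the order of replicates 1, 2 and 3 used throughout, against 24461, 23901 and 25160 in no dox. The 6 libraries fell into separate ranges, and replicates of a group differed by no more than 1.05-fold. Its change of -0.22 had an SE of 0.08 without the block (limma adjusted p = 0.321) and of 0.04 with it (limma adjusted p = 0.0052). SLC2A3 (GLUT3), a high-affinity glucose transporter, had 278.5, 345.4 and 392.3 in dox and 357.4, 412.5 and 571.0 in no dox, ranges that overlap. Each pair was lower in dox, and the gene fell by 0.38 with the block (limma adjusted p = 0.00832). Neither call held without pair 3: SLC2A1 had an adjusted p of 0.0569 without pair 2 and 0.0527 without pair 3, and SLC2A3 of 0.0684 without pair 3.

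The upper, ATP-consuming steps of glycolysis held 10 measured genes, of which 7 fell, 1 rose and 2 did not pass. HK2, the inducible hexokinase that phosphorylates glucose, had 1927, 1770 and 2174 normalised counts in dox against 2300, 2217 and 2547 in no dox. All dox values were below all no dox values, a fall of 0.27 (SE 0.05 with the block, limma adjusted p = 0.00283). HK1, the constitutive hexokinase, had 10392, 9863 and 10377 against 11377, 11076 and 11394. Its groups were also apart, and its fall of 0.14 (limma adjusted p = 0.0266) did not pass without pair 2 (0.214) or pair 3 (0.132). On the FPKM scale the log2 ratio of HK2 to HK1 was -1.10, -1.15 and -0.93 in dox and -0.98, -0.99 and -0.83 in no dox, a difference of -0.13 (pairs -0.12, -0.16 and -0.10). The SD of the ratio was 0.12 among dox and 0.09 among no dox libraries and 0.03 over the pairs, and the difference was not tested.

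Phosphofructokinase, which commits glucose carbon to glycolysis, is built from 3 isozymes that did not move together. PFKL, the liver type, had 4801, 6798 and 7061 normalised counts in dox against 7287, 8037 and 9058 in no dox. Every dox library was below every no dox library, and dox replicate 1 was the lowest of all, with a fall of 0.40 (SE 0.06 with the block, limma adjusted p = 0.00188). PFKM, the muscle type (chromosome 12, 48498922 to 48540187), had 2711, 2549 and 2714 in dox against 2147, 2065 and 2232 in no dox. It was the 1 listed gene whose dox libraries were all above the no dox libraries, a rise of 0.31 (SE 0.07, limma adjusted p = 0.107 without the block, and SE 0.04, limma adjusted p = 0.00109 with it). PFKP, the platelet type, had 11547 ± 357 in dox and 11610 ± 421 in no dox (SD, n = 3 each). Its difference was -0.01 with a limma adjusted p of 0.925 with the block, and it was above 0 from FPKM, TMM and quantile-scaled values. As CPM per kilobase of merged exon (GENCODE 29 lengths), the no dox means were 81.8 for PFKP, 31.0 for PFKL and 10.003 for PFKM, so the isozyme that rose was the least abundant of the 3.

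PFKFB3 and PFKFB4 make and remove fructose 2,6-bisphosphate, the allosteric activator of phosphofructokinase. PFKFB3 had 1120, 1522 and 1809 normalised counts in dox against 1651, 1737 and 2176 in no dox. Its groups overlapped, its pairs were -0.56, -0.19 and -0.27, and it fell with the block (limma adjusted p = 0.00708). PFKFB4 had 946.3 ± 253 against 979.4 ± 233 (SD, n = 3 each) with pairs on either side of 0, and did not pass (limma adjusted p = 0.565 with the block).

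For the other upper enzymes, the pair differences spanned less than the libraries of either group, most clearly in TPI1. The pairs ran from -0.23 to -0.12 in GPI and from -0.36 to -0.19 in ALDOA. GPI, which isomerises glucose 6-phosphate, had 5047, 5809 and 6113 in dox against 5934, 6573 and 6651 in no dox. ALDOA, the main aldolase of these cells, had 33750, 38912 and 47333 against 43401, 46213 and 54054. TPI1, triose phosphate isomerase, had 16369, 18173 and 23891 against 21450, 23776 and 31058. In each of these 3 genes replicate 3 was the highest library of its group and replicate 1 the lowest, and the groups overlapped. TPI1 differed by -0.39, -0.39 and -0.38 in the 3 pairs, with a limma adjusted p of 0.431 without the block and 0.000278 with it. ALDOA fell by 0.27 and GPI by 0.18 with the block (limma adjusted p = 0.00499 and 0.0139), and GPI did not pass without pair 2 (0.108).

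**Figure D2:**
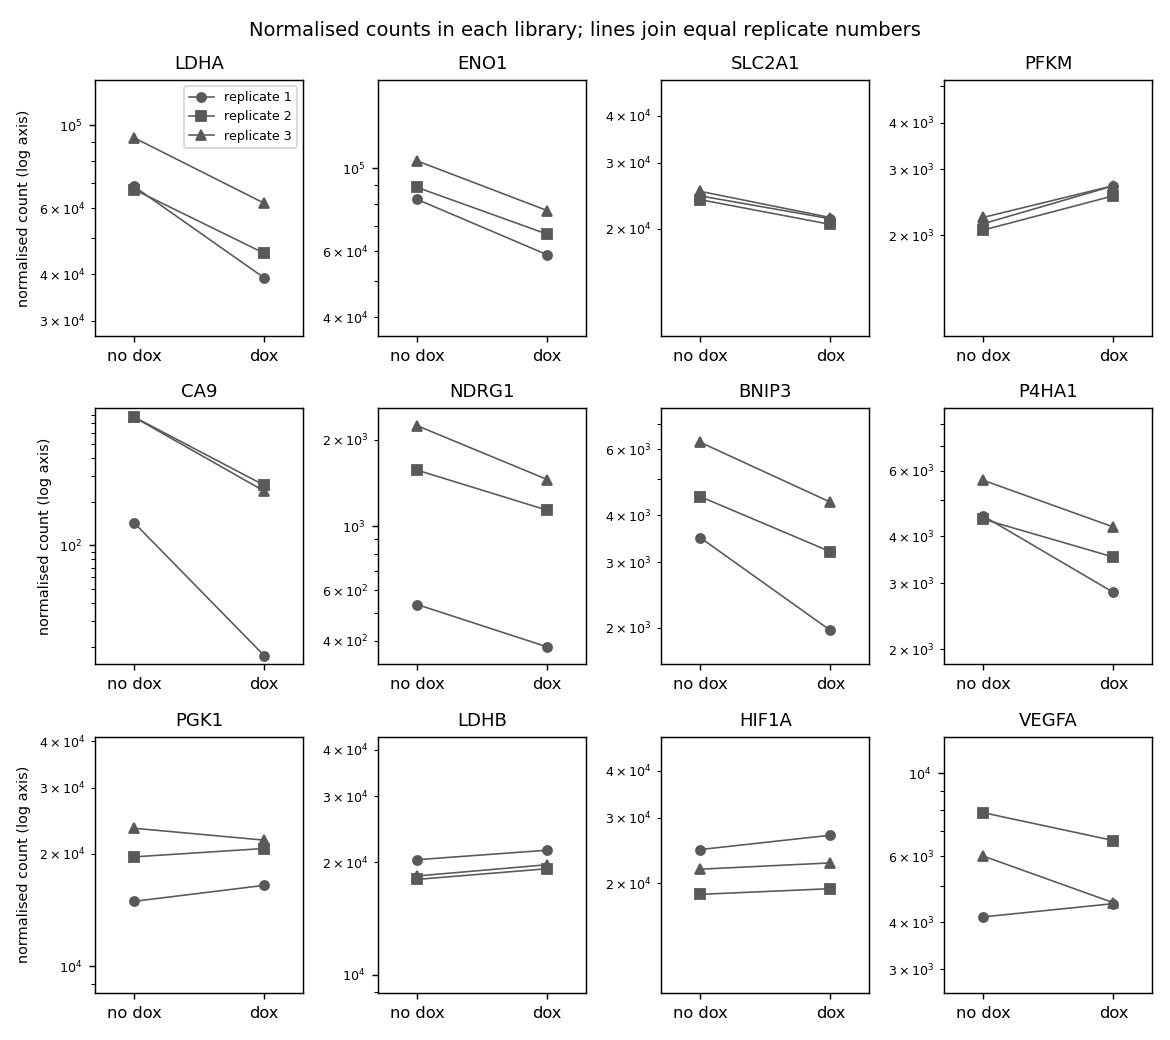
Normalised counts (log axis) of 12 of the genes in each library, with lines joining libraries of equal replicate number, no dox on the left and dox on the right. Lines run downward for LDHA, ENO1, CA9, NDRG1, BNIP3 and P4HA1 and upward for PFKM, while those of PGK1 and VEGFA run in both directions.

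Of the 6 measured genes of the lower, ATP-yielding steps, 4 fell and 2 did not pass. ENO1, the ubiquitous enolase (chromosome 1, 8921061 to 8939308), had 58684, 66618 and 77023 normalised counts in dox against 82512, 88850 and 104589 in no dox. The groups did not overlap, and between 52581 and 119797 recovered reads stood behind each value. It fell by 0.45 (SE 0.16, limma adjusted p = 0.272 without the block, and SE 0.05, limma adjusted p = 0.000352 with it), and it passed in the block fit from FPKM too. ENO2, an enolase best known from neurons, had 1836, 3294 and 3380 against 3067, 4120 and 4525. The fall of 0.49 (limma adjusted p = 0.00119 with the block) was largest in pair 1 at -0.74, and the groups overlapped. Enolase 1 was the prevalent form, at 593.9 against 31.1 CPM per merged-exon kilobase in no dox.

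GAPDH, which oxidises glyceraldehyde 3-phosphate, had 98126, 107774 and 148050 in dox against 114741, 121201 and 163353 in no dox. Replicate 3 exceeded replicate 1 by more than the difference between groups, and the fall of 0.18 passed narrowly (limma adjusted p = 0.0415) and not without pair 2 (0.198) or pair 3 (0.154). PGAM1, a phosphoglycerate mutase, had 16568, 17651 and 24972 against 20241, 20199 and 29117. Its replicate 3 libraries again stood highest, and it fell by 0.23 with the block (limma adjusted p = 0.00436). PGK1, phosphoglycerate kinase, had 19629 ± 2788 in dox and 19320 ± 4247 in no dox (SD, n = 3 each). With pairs of 0.14, 0.07 and -0.11 it did not pass (limma adjusted p = 0.658 with the block), and its window printed above holds the HIF core. PKM, pyruvate kinase, had 165953 ± 15362 against 150900 ± 12349. All its pairs were higher, yet limma with the block did not call it (adjusted p = 0.124), while edgeR with the block did (0.04).

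Several of the listed genes have many processed pseudogenes. GENCODE 29 names 62 after GAPDH, 39 after BNIP3, 13 after PGAM1, 6 after LDHA, 5 after PKM and 4 each after TPI1 and ENO1. The sources used here do not tell how reads that map to several places were counted, and the values of these genes are uncertain to that extent.

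Among the listed genes of glycolysis and pyruvate, LDHA had the largest difference. LDHA, the lactate dehydrogenase subunit that favours lactate formation (chromosome 11, 18415935 to 18429972), had 39060, 45454 and 61847 normalised counts in dox against 68572, 67293 and 92505 in no dox. Even the highest dox library lay below the lowest no dox library, with 48787 ± 11754 against 76123 ± 14201 (SD, n = 3 each). It fell by 0.65 on the log2 scale (SE 0.20, limma adjusted p = 0.217 without the block, and SE 0.06, limma adjusted p = 0.000139 with it). LDHB, the subunit that favours pyruvate, had 21554, 19233 and 19711 against 20329, 18009 and 18392. Its 3 pairs were each between 0.08 and 0.10 higher, which did not pass (limma adjusted p = 0.132 with the block).

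The balance of both subunits differed the same way in each pair, a description with no test. The log2 ratio of LDHA to LDHB on the FPKM scale was -0.99, -0.61 and -0.20 in dox and -0.10, 0.05 and 0.48 in no dox, a difference of -0.75 with pairs of -0.90, -0.66 and -0.68 (SD over pairs 0.13). The highest dox ratio was below the lowest no dox ratio. The level of the ratio depends on the gene lengths used: per merged-exon kilobase it was -0.20, 0.18 and 0.59 in dox and 0.70, 0.84 and 1.27 in no dox, so LDHA exceeds LDHB in 5 of 6 libraries on that scale and in 2 of 6 from FPKM. The difference between groups is -0.75 on each.

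SLC16A3 (MCT4), the lactate exporter of glycolytic cells, had 15039, 14062 and 16332 in dox against 20447, 17229 and 19351 in no dox. Its groups were apart, and it fell by 0.33 (SE 0.10, limma adjusted p = 0.218 without the block, and SE 0.05, limma adjusted p = 0.00152 with it). SLC16A1 (MCT1), which carries lactate and pyruvate either way, had 4221, 3029 and 3373 against 3552, 3194 and 3357. Its pairs of 0.25, -0.08 and 0.01 did not point one way, and it did not pass (limma adjusted p = 0.517 with the block). PDK1, the kinase that closes pyruvate dehydrogenase, had 492.3, 972.3 and 1014 against 791.4, 1241 and 1396. Replicate 1 was far below the others in each group, so the groups overlapped, and within pairs it fell by 0.50 (limma adjusted p = 0.582 without the block and 0.00099 with it).

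None of the 3 measured genes of oxygen sensing passed. HIF1A had 26918, 19371 and 22702 normalised counts in dox against 24648, 18707 and 21842 in no dox. The groups overlapped, each pair was 0.05 to 0.13 higher, and limma gave an adjusted p of 0.225 with the block. EPAS1 (HIF-2 alpha) had 2755, 1570 and 2041 against 2045, 1479 and 1913. Its pairs were 0.43, 0.09 and 0.09, with a limma adjusted p of 0.0578 and an edgeR adjusted p of 0.0328, both with the block. EGLN1, the main HIF prolyl hydroxylase, had 2973, 3187 and 3631 against 3332, 3058 and 3375. Its mean difference was 0.00, from pairs on either side of 0. In both HIF genes replicate 1 was the highest and replicate 2 the lowest library of each group.

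Of 12 further HIF targets, 6 fell and 6 did not pass. CA9, a cell surface carbonic anhydrase that serves as a marker of hypoxia (chromosome 9, 35673853 to 35681156), had 17.3, 259.9 and 236.9 normalised counts in dox against 143.1, 769.6 and 766.4 in no dox. Replicate 1 was low in both groups, and its dox library, with 30 recovered reads, lay far below the other 5. The groups differed by -2.08 on the log2 scale (SE 1.07, limma adjusted p = 0.479 without the block, and SE 0.22, limma adjusted p = 0.000291 with it), from pairs of -2.98, -1.56 and -1.69. Unpaired and without dox replicate 1 the difference was -0.82. Within groups it varied 5.35-fold among the no dox and 14.3-fold among the dox libraries.

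BNIP3 and BNIP3L are mitochondrial receptors for mitophagy. BNIP3 had 1970, 3198 and 4337 in dox against 3486, 4487 and 6268 in no dox. BNIP3L had 6493, 7941 and 9668 against 8050, 10563 and 12318. In both genes the groups overlapped, and replicate 1 was the lowest and replicate 3 the highest library of each group. BNIP3 fell by 0.61 (limma adjusted p = 0.453 without the block and 0.000233 with it) and BNIP3L by 0.36 (0.488 and 0.000423). NDRG1, a gene long used as a hypoxia reporter, had 380.8, 1136 and 1453 against 534.7, 1566 and 2235. Its no dox libraries alone spanned 4.17-fold, while its pairs were close, at -0.49, -0.46 and -0.62. It fell by 0.52 with the block (limma adjusted p = 0.000275), and unpaired its difference was 0.06 without dox replicate 1.

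P4HA1 and P4HA2 are the catalytic subunits of collagen prolyl 4-hydroxylase. P4HA1 (chromosome 10, 74766975 to 74856732) had 2835, 3524 and 4239 in dox against 4537, 4447 and 5652 in no dox. The groups did not overlap, and the gene fell by 0.48 (SE 0.16, limma adjusted p = 0.245 without the block, and SE 0.06, limma adjusted p = 0.000724 with it). P4HA2 had 1773, 1542 and 1693 against 2111, 1762 and 2138. Dox replicate 1 was just above no dox replicate 2, and the fall was 0.26 (limma adjusted p = 0.00475 with the block). INSIG2, an endoplasmic reticulum brake on sterol synthesis, had 706.4, 719.1 and 697.1 against 789.8, 771.2 and 875.9. Its groups were apart, but its difference of -0.20 was just outside the threshold with the block (limma adjusted p = 0.0521).

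The remaining HIF targets did not pass in limma with the block. VEGFA, the angiogenic growth factor, had 4487, 6616 and 4513 normalised counts in dox against 4136, 7853 and 6013 in no dox, with pairs of 0.12, -0.25 and -0.41 (limma adjusted p = 0.144). ANKRD37 had 52 to 150 recovered reads per library, and its pairs ran from -0.80 to 0.03. KDM3A, a histone H3 lysine 9 demethylase, was 0.25, 0.10 and 0.08 lower in the 3 pairs (limma adjusted p = 0.0798). MXI1, a MYC antagonist, was 0.24, 0.14 and 0.08 higher (limma adjusted p = 0.0627). ADM, adrenomedullin, had 1977 ± 603 against 1984 ± 444 (SD, n = 3 each), and its sign changed with FPKM values.

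The genes that fell came from several roles, while 12.4% of all genes fell. They were 2 of 2 in glucose uptake, 7 of 10 in upper and 4 of 6 in lower glycolysis. Around pyruvate and lactate 3 of 5 fell, among HIF factors and sensors 0 of 3 and among further targets 6 of 12. In fits that left out 1 pair at a time, 17 of the 22 were called in all 3, the exceptions being SLC2A1, SLC2A3, HK1, GPI and GAPDH. Without pair 1, INSIG2 and VEGFA were called lower as well.

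Single libraries weighed on many of the unpaired differences. Leaving out 1 library moved the difference of 14 of the 23 called genes by over 1.5 times, while leaving out a pair from the block fit did so for 0. The 23 were chosen by the block fit, which favours genes whose pairs agree. That 0 was thus largely set by the choice of genes and does not show that paired differences are steadier. Without dox replicate 1 the difference was -0.82 for CA9, 0.06 for NDRG1, -0.16 for PDK1, -0.21 for ENO2, -0.31 for BNIP3, -0.21 for BNIP3L, -0.22 for PFKL, -0.25 for SLC2A3, -0.15 for PFKFB3, -0.15 for ALDOA, -0.10 for GPI, -0.12 for PGAM1 and -0.06 for GAPDH. Without no dox replicate 3 it was -0.09 for NDRG1, -0.39 for BNIP3, -0.22 for BNIP3L, -0.23 for TPI1, -0.19 for SLC2A3, -0.22 for PFKFB3, -0.18 for ALDOA, -0.06 for PGAM1 and -0.02 for GAPDH. It was larger without dox replicate 3 in NDRG1 (-0.90), PGAM1 (-0.42) and GAPDH (-0.35), and without no dox replicate 1 in NDRG1 (-1.13) and GAPDH (-0.28). LDHA, ENO1, SLC2A1, HK1, HK2, SLC16A3, P4HA1, P4HA2 and PFKM moved by less than that in each of these fits.

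The listed genes varied more among the libraries of a group than genes at large. The 38 genes had a median range of 0.40 (log2) among the no dox libraries and 0.55 among the dox libraries, beside 0.27 and 0.28 over all genes. In 27 of 38 the no dox range exceeded the difference between groups, beside 78.1% of all genes, which does not set the list apart. A range of 3 single libraries and a difference between group means are unlike measures. Replicate 1 was the lowest library of each group in 20 of 38 genes (26.0% of all genes), and replicate 3 the highest of each group in 25 (17.7%). Same-numbered libraries deviated together with correlations of 0.925, 0.93 and 0.907 across the 38 genes, a description over genes that share libraries. The labels do not say what the number stands for. Depth and mitochondrial share also set replicate 3 apart, and both differed the same way between dox and no dox in every pair. Their part was not tested.

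**Figure D3:**
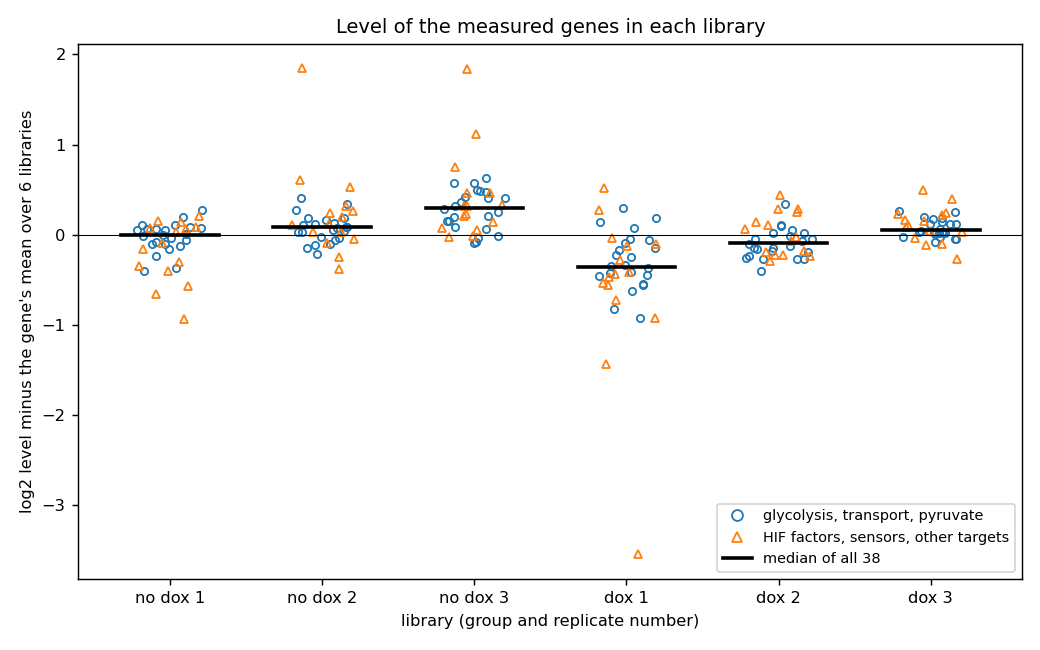
Level of each measured gene in each library, as log2(normalised count + 1) minus the gene's mean over the 6 libraries. Circles are glycolysis, transport and pyruvate genes, triangles HIF factors, sensors and other targets, and bars the medians, which run from -0.36 in dox replicate 1 to 0.30 in no dox replicate 3.

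By library, the median deviation of the 38 genes from their own means was -0.36, -0.09 and 0.05 in dox and -0.01, 0.09 and 0.30 in no dox, in replicate order. Dox replicate 3 thus lay above no dox replicate 1, and the median difference between groups depended on single libraries: leaving out dox replicate 1 gave -0.14, and leaving out no dox replicate 3 gave -0.15. As a share of all recovered reads the list took 2.06%, 2.25% and 2.56% in dox and 2.31%, 2.48% and 2.84% in no dox, or 2.29% ± 0.26 against 2.54% ± 0.27 (SD, n = 3 each). Each pair was lower in dox, and the ranges of the groups overlapped.

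On the scale of CPM per merged-exon kilobase, the most abundant listed RNAs in no dox were GAPDH (1519), PKM (599.7), ENO1 (593.9), LDHA (417.0) and ALDOA (416.6). The ranges of PKM and ENO1 over the no dox libraries overlapped, as did those of LDHA and ALDOA. SLC2A1 (176.8) exceeded SLC2A3 (2.49), HK1 (61.1) exceeded HK2 (13.2) and SLC16A3 (72.0) exceeded SLC16A1 (21.6) in every library. In dox PKM (671.4) stood above ENO1 (443.8) in every library. The deposited FPKM divide by the summed exons of all annotated transcripts, a median of 2.24 times the merged length, and so understate genes with many transcripts.

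A further 112 genes of the same pathways were listed, of which 87 were measured. Without the block limma called 0 lower and 1 higher, and with it 15 lower and 15 higher (17.2% each), beside 12.4% and 10.2% of all genes. Their median difference was 0.01, with 40 of 87 negative. SLC2A6, a lysosomal hexose transporter, had 256.9, 308.1 and 276.8 normalised counts in dox against 120.8, 144.7 and 151.7 in no dox. Its groups were far apart, and it rose by 1.01 (SE 0.14, limma adjusted p = 0.0411 without the block). EMB, a partner protein of monocarboxylate transporters, fell by 0.44 (limma adjusted p = 0.0525 without the block and 0.000237 with it), and BSG (basigin), another partner, rose by 0.15 with the block (limma adjusted p = 0.0343). The remaining 6 genes of that transport list did not pass.

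Among 12 genes of pyruvate entry into mitochondria, 2 rose with the block (16.7%, beside 10.2% of all genes). PDK4, a pyruvate dehydrogenase kinase, had 24.8, 31.9 and 37.9 in dox against 6.50, 9.52 and 9.12 in no dox. The groups were apart, and it rose by 1.79 (SE 0.34, limma adjusted p = 0.0687 without the block and 0.0018 with it), opposite to PDK1. Every no dox value of PDK4 was under the minimum of 10, so it entered the test only through its dox libraries. Its call, and its place among the 2, are therefore no independent support for a rise. PDK2 rose by 0.47 with the block, and PDHA1, the catalytic subunit of pyruvate dehydrogenase, did not pass (0.13, limma adjusted p = 0.087). No gene of that list passed in the lower direction. In the pentose phosphate list of 8, TKT, transketolase, rose by 0.28 with the block (limma adjusted p = 0.0019), while PGLS (0.13, limma adjusted p = 0.0827) did not pass. Of 11 other glycolytic isozymes and regulators, 3 fell and 2 rose with the block (27.3% and 18.2%, beside 12.4% and 10.2% of all genes). TIGAR, a fructose bisphosphatase and p53 target, rose by 0.77 (limma adjusted p = 0.000129 with the block). BPGM (-0.38) and PGM2 (-0.26) fell with the block, as did PGM1 (-0.29), and G6PC3 rose (0.18), the last pair being named after their values were seen.

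In the HIF regulation list of 12, TCEB2 (elongin B, 0.14) and, named after its value was seen, HIF1AN (factor inhibiting HIF, 0.17) rose with the block. They made up 16.7% of that list, beside 10.2% of all genes. RBX1 (-0.14, limma adjusted p = 0.0843) and EGLN2 (-0.17, limma adjusted p = 0.198) did not pass. Of 35 further hypoxia-inducible genes, 11 fell and 5 rose with the block (31.4% and 14.3%, beside 12.4% and 10.2% of all genes). PLOD1, a collagen lysyl hydroxylase, had 8649, 8007 and 9036 in dox against 10907, 11224 and 12605 in no dox. Its groups were well apart, with a fall of 0.43 (limma adjusted p = 0.0892 without the block and 0.000252 with it). FUT11 (-0.36) and the oxidoreductase ERO1L (-0.37) fell likewise. Among the 5 that rose were DDIT4 (0.32), BHLHE40 (0.28), BHLHE41 (0.15) and FOS (1.11), named after their values were seen.

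**Figure D4:**
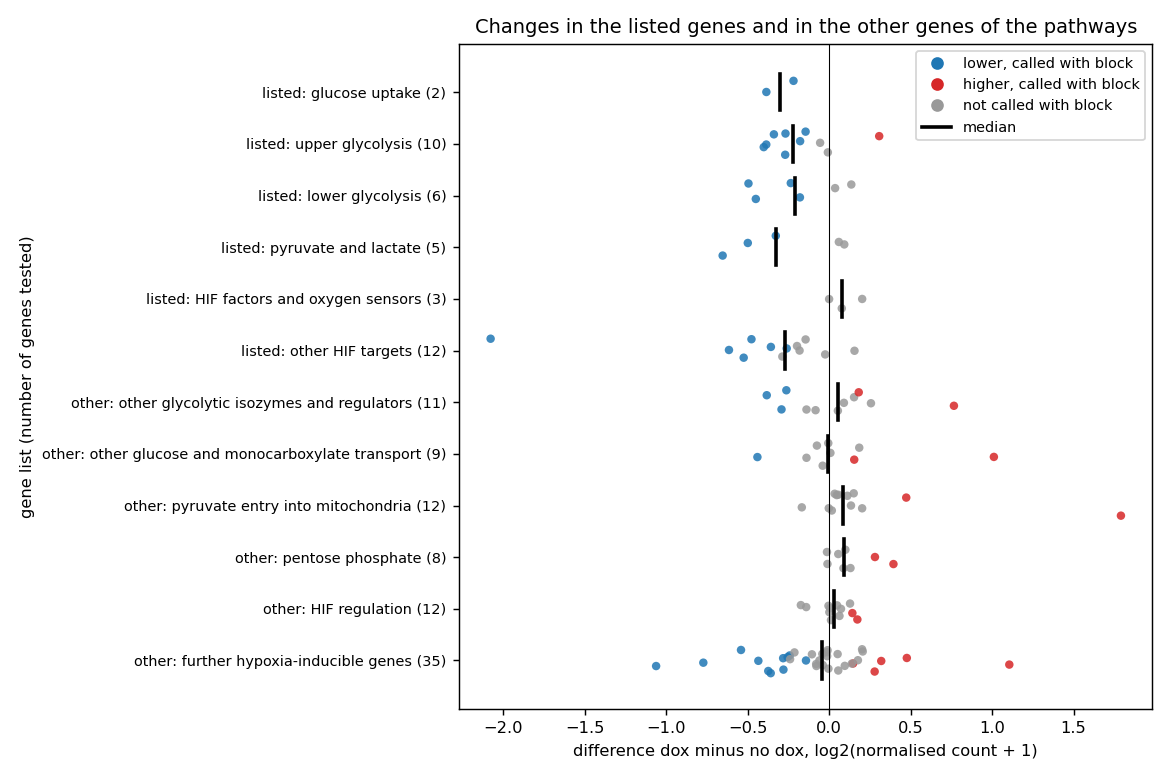
Difference dox minus no dox, log2(normalised count + 1), for the 38 listed genes by role and the 87 other measured genes of the pathways by list, with the number tested in parentheses. Points are genes, bars list medians, and colour shows the call with the replicate block. Medians of the listed roles lie below 0 except for HIF factors and sensors, and those of the other lists lie near 0.

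In the authors' deposited table none of the 38 genes was marked up or down, where 97 and 106 of all genes were. The marked genes had an adjusted p of at most 0.0098 there, a stricter limit than the 0.05 used here. At an adjusted p under 0.05 that table held 361 genes and 0 of the 38. The smallest adjusted p of the 38 in the authors' deposited table was 0.107, for LDHA and P4HA1. The authors' deposited table gave 10 of the 38 an unadjusted p under 0.05 in the lower direction, beside 5.18% of its genes, and 1, PFKM, in the higher.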

How the data were processed

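The 6 libraries of polyadenylated RNA, 3 dox and 3 no dox, were grouped and numbered from the sample titles. The submitters' processing notes list the build hg19 and the tools TopHat, Trimmomatic, bcl2fastq and edgeR, with no roles. Multi-mapping, strand handling and the formula of the normalised counts are not given in the sources used here. These normalised counts, as the authors deposited them, are a signal scaled to equal depth and hold fractions. The authors also deposited FPKM. Their deposited comparison table has CPM, log2 fold changes, a likelihood ratio score, and each p-value raw and adjusted, per the file headers. All deposited CPM values were whole multiples of 1 read (100% in each library, tolerance 0.01), which gave whole reads and the library totals.

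limma-trend was fitted to log2(normalised count + 1) of 13153 genes with at least 10 in at least 3 libraries, without a block (4 residual degrees of freedom), two-sided, Benjamini-Hochberg adjusted at 0.05. The log2(value + 1) scale understates changes of low genes. The titles number the replicates 1 to 3 in both groups. Same-numbered libraries deviated together (correlations 0.745, 0.726 and 0.768), so the numbers were taken to pair the libraries. The unblocked fit was the main one, and for part of the genes only the adjusted p of the blocked fit is printed. Chi-square per degree of freedom between libraries was at least 16.0, so no library was a repeat of another. The alternatives tried were pseudocounts of 0.25 and 5, a minimum of 50 or none, FPKM in place of normalised counts, scaling by TMM, by median of ratios or by quantiles, leaving out libraries or pairs, and edgeR and DESeq2 on the recovered reads (13004 genes). Levels per merged exon length were added after the data were seen.

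The 40 genes and the other lists were chosen with earlier results of these data known. Values per library are given, in each role, for the 3 genes with the smallest p without the block and for every gene called with or without it; in each further list the 3 genes with the smallest p are named. A few listed items are not reported. Symbols were matched to gene IDs through the deposited table and a name table. Promoter windows came from RefSeq GRCh38.p14 and merged exon lengths from GENCODE 29. The fits were tested on simulated data. The fits used DESeq2 1.42.0, edgeR 4.0.16 and limma 3.58.1 under R 4.3.3, and figures used Python with pandas, numpy and matplotlib.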

Additional observations from a re-analysis of the deposited data

How the results depend on the processing

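Without the replicate block the counts of listed genes called stayed at 0 lower and 0 higher under other pseudocounts, filters, scalings and FPKM, in edgeR, and in each fit that left out 1 library; DESeq2 called 2 lower and 1 higher. With the replicate block the counts lower and higher were 22 and 1, and they were 6 and 1 from FPKM, 21 and 3 with TMM, 22 and 3 in edgeR and 21 and 1 in DESeq2. The block fits without replicate 1, 2 or 3 gave 24 and 1, 18 and 1, and 18 and 1. Of all 13153 genes, those fits called 2074 lower and 1761 higher, 830 and 584, and 1007 and 772. With block and TMM 1525 and 1453 of all genes were called, and the shares for the other fits are given in the Results. The pairing comes from the numbers in the titles, and the block changed counts of calls, not differences.

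For the 87 other pathway genes the counts lower and higher were 0 and 1 without the block. They were 15 and 15 with the replicate block, 5 and 5 with block and FPKM, 14 and 18 with block and TMM, 14 and 19 in edgeR with the block, 3 and 4 in DESeq2, and 14 and 11 in DESeq2 with the block. Block fits without replicate 1, 2 or 3 gave 18 and 23, 11 and 9, and 11 and 9. These counts stand beside the counts and shares over all genes given above for the same fits. The 1 higher call, SLC2A6, was lost from FPKM and in every fit without 1 library (0 higher in each). The cause was not tested; fits without 1 library have fewer samples.

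The median difference of the listed genes was -0.20 to -0.24 in the fits with all libraries or with whole pairs, and ran from -0.14 (without dox replicate 1) to -0.32 (without dox replicate 3) when 1 library was left out. The LDHA to LDHB and HK2 to HK1 differences kept their direction, from -0.95 to -0.55 and from -0.19 to -0.074.

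Signs reversed in 13 genes. Of these, NDRG1 fell with the block, EPAS1 and MXI1 were called higher with the block and TMM (EPAS1 also in edgeR with the block), and VEGFA was called lower with the block without replicate 1. PFKP was 0.019 from FPKM with or without the block, 0.00067 with TMM with or without it, 0.00601 with quantile scaling, 2.3e-05 in edgeR and 0.048 with the block without replicate 1. ADM was 0.0022 from FPKM with or without the block, 0.0046 in edgeR, and with the block 0.0079 without replicate 1 and 0.019 without replicate 3. With the block and without replicate 1, PGK1 was -0.016 and SLC16A1 -0.035. EGLN1 was -0.0296 with the block without replicate 2 and -0.053 without replicate 3, and PFKFB4 0.0101 without replicate 3.

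When 1 library was left out, the lowest and highest log2 differences were -0.027 and 0.022 for PFKP, -0.27 and 0.16 for PFKFB4, -0.14 and 0.19 for PGK1, -0.074 and 0.17 for SLC16A1, -0.042 and 0.20 for HIF1A, -0.0045 and 0.40 for EPAS1, -0.079 and 0.065 for EGLN1, -0.43 and 0.037 for VEGFA, -0.25 and 0.19 for ADM, -1.13 and 0.0600 for NDRG1, -0.48 and 0.0049 for ANKRD37, -0.33 and 0.098 for KDM3A, and -0.13 and 0.40 for MXI1. The cause was not tested.

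CA9 (30 to 873 recovered reads per library) and ANKRD37 (52 to 150) held the lowest single counts of the measured listed genes. With 3 libraries a group and 2 residual degrees of freedom, the block fit leans on the spread shared across genes, and a gene that did not pass is not shown to be unaltered.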
